A study of Mus musculus with 5 samples.

Results

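The genes described here, in the retina of mice mutant in Rb, encode the motors that move along microtubules and actin filaments and their tracks. They were all genes whose single symbol in the platform annotation names a kinesin or kinesin light chain, a cytoplasmic dynein or dynactin subunit, a myosin heavy or light chain, an alpha, beta or gamma tubulin or a protein of the gamma tubulin ring complex, a microtubule-associated protein (LC3 included), an EB protein or a stathmin. Kif11, Kif20a, Kif23, Tuba1b, Tubb5 and Stmn1 were left out by the rule. The rule itself read symbols and used no measured value, but members were chosen with earlier results of these data known. This gave 52 genes on 78 spots, of 5708 genes on 7722 spots with a single symbol.

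The study hybridised total RNA of mice mutant in Rb (Rb-), the retinoblastoma tumour suppressor, together with wild-type RNA on 5 spotted arrays read in 2 colours, and its title names retinal explants, retina kept in organ culture. Channel 1 of each array held the wild type and channel 2 the mutant, so there is 1 group of 5 replicates, called arrays 1 to 5 here. None of the sources used here gives the strain, age, time in culture, Cre driver, exact Rb allele or any treatment. Values are log2 ratios as deposited, with each array's median set to 0, and are called centred log2 ratios below. The scanner formed ratios as 635 over 532 nm, but no label ties a dye to an RNA, so neither sign is assigned to the mutant. The labels name no separate animals or cultures, so the p-values below reflect how far these 5 arrays differ, and that spread may be technical. In a bulk ratio, fewer cells of a type and less RNA per cell cannot be told apart. A ratio carries no expression level, so levels of different genes could not be compared, and the labelled tissue could be checked only by ratios of its markers, given beside the results they touch.

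Microtubules are hollow polymers of alpha and beta tubulin with a fast-growing plus end. Kinesins mostly walk toward the plus end and cytoplasmic dynein, with its activator dynactin, toward the minus end, while myosins pull on or walk along actin filaments. Photoreceptors depend on these motors to carry proteins through a connecting cilium to the light-sensing outer segment, and retinal neurons use them to supply axons and synapses. Structural microtubule-associated proteins such as tau and MAP1B bind along the microtubule wall and are abundant in growing neurites.

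Of the 78 spots, 50 gave a usable ratio on all 5 arrays, 16 on 4, 8 on 3 and 4 on 2. The 66 probes on at least 4 arrays, for 44 genes, entered the test, and 12 spots, among them the only spot of 8 genes, did not. Usable spots per array ranged from 12444 to 13145 of 17328. Centred ratios were spread more widely on arrays 1 and 3, with scaled median absolute deviations of 1.37 and 1.31, than on arrays 2, 4 and 5, at 0.971 or less. The targeted gene, Rb1, had centred log2 ratios of -0.07, 0.20, -0.23, 0.04 and -0.08 on arrays 1 to 5 at spot 16891, and 0.95, 2.06, -1.33 and 1.72 on arrays 1, 2, 3 and 5 at spot 13258. Both had values on either side of 0. Where the probes lie relative to any deleted part is not stated, so they check nothing about the labels.

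No motor or track probe passed limma's test at a Benjamini-Hochberg adjusted p under 0.05. The smallest adjusted p among them was 0.284, and no probe of any kind passed (0 of 10036, 0.0%). At an unadjusted limma p under 0.05, a level that 1146 of the 10036 probes reached, 8 of the 66 motor and track probes had negative and 3 positive means. The corresponding shares of all 5822 single-symbol probes were 6.18% negative and 3.35% positive. The negative probes were Dync1h1 spot 8176, Dynlt1b spot 12719, Klc3, Map1b spots 10857 and 12713, Mapt spot 9834, Kif13a spot 13261 and Kif7, and the positive ones were Dync1i1, Klc1 spot 11970 and Myo5a spot 9561. An unmoderated test made 0 calls as well. Without arrays 1 and 3 the negative count was 2 in place of 8. Without centring it was 21, a setting that lowers every mean because each array's deposited median was below 0.

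As a group, the motor and track probes had a median slightly below that of all single-symbol probes on every array. On array 4 it was above the median of all tested probes. The median of the probes minus the median of all single-symbol probes was -0.37, -0.06, -0.20, -0.03 and -0.04 on arrays 1 to 5 (log2), averaging -0.14 ± 0.15 (SD, n = 5). Arrays 1 and 3 carried most of this difference, which was -0.08 without array 1 and -0.04 without both. Within the arrays scanned at focus position 10 (arrays 1 to 3) it was -0.21, and within those at focus position 0 (arrays 4 and 5) it was -0.07. Relative to all tested probes, with or without a single symbol, the differences were -0.53, -0.03, -0.33, 0.03 and -0.13 on arrays 1 to 5. These averaged -0.20 ± 0.23 (SD, n = 5). Probes below the single-symbol median numbered 37 of 63, 38 of 63, 39 of 63, 36 of 64 and 35 of 61 on arrays 1 to 5. Over arrays, 49 of the 66 probe means were negative and 17 positive, with a median of -0.45, against -0.22 for all single-symbol probes. The probes' own SD over arrays had a median of 0.764 and ran from 0.180 to 3.68.

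**Figure D1:**
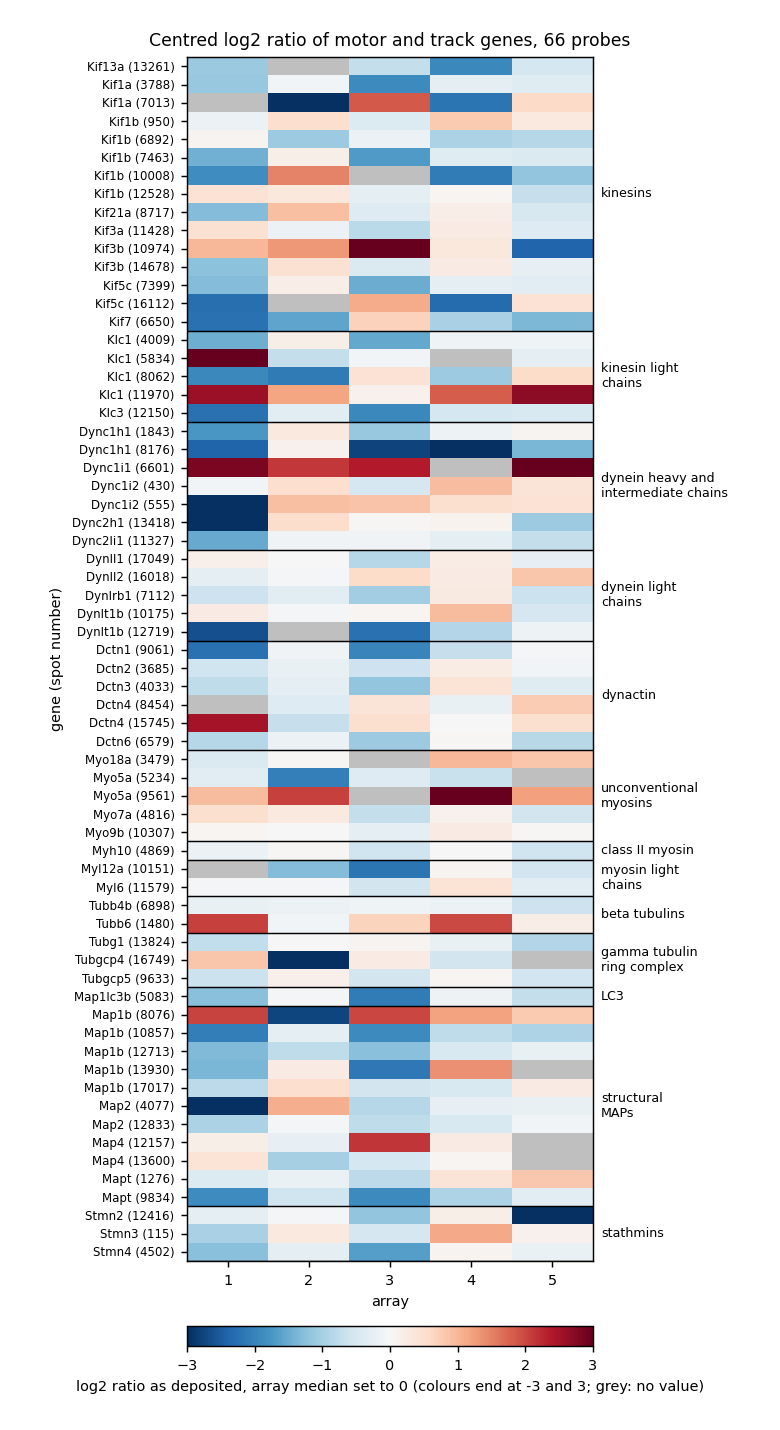
Centred log2 ratio (colour, ending at -3 and 3) of the 66 probes tested, 1 row a probe with its spot number, ordered by role, on arrays 1 to 5; grey marks no value. Columns 1 and 3 hold the most blue, and few rows keep 1 colour across the arrays, the Dync1i1 row (2.12 to 4.91) among them.

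Transport and other kinesins showed ratios on both sides of 0 within most genes. Of 15 probes tested, for 8 genes, 2 reached an unadjusted limma p under 0.05, both with negative means. At that p, 6.18% of single-symbol probes were negative and 3.35% positive. The group's median minus the single-symbol median was -0.81, 0.19, -0.06, -0.38 and -0.22 on arrays 1 to 5. Kif1a carries synaptic vesicle precursors along axons. Its spot 3788 had centred log2 ratios of -1.13, -0.07, -1.90, -0.30 and -0.37 on arrays 1 to 5, and its mean was -0.76 ± 0.76 (SD, n = 5; limma adjusted p = 0.442). All 5 values were negative, with arrays 1 and 3 lowest. Its other probe, spot 7013, had no value on array 1 and read -3.05, 1.83, -2.19 and 0.56 on arrays 2 to 5, with no shared sign. Kif5c, a neuronal heavy chain of conventional kinesin, read -1.31, 0.20, -1.48, -0.30 and -0.34 at spot 7399, and arrays 1 and 3 were again lowest. Its spot 16112, without array 2, read -2.26, 1.11, -2.31 and 0.43. Kif5b, the widely expressed heavy chain, had values on arrays 1 and 4 alone, -1.33 and 0.30.

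Kif1b, a close relative of Kif1a that carries mitochondria and synaptic vesicle precursors, had 6 spots, the most of any gene here, and its 5 tested probes had means from -0.91 to 0.20. Spot 7463 had the arrays 1 and 3 pattern, at -1.45, 0.18, -1.71, -0.37 and -0.44, while spot 950 read -0.18, 0.50, -0.42, 0.79 and 0.30. The remaining spots 6892, 10008, 12528 and 11783 (on 3 arrays) ranged from -2.10 to 5.52. Kif13a, which carries endosomal cargo, read -1.10, -0.73, -1.94 and -0.54 on arrays 1, 3, 4 and 5 at spot 13261 (mean -1.08 ± 0.62, n = 4; limma adjusted p = 0.432). All 4 values were negative, and its spot 17080, on 3 arrays, read -4.89, 0.06 and 1.32. Kif7, a ciliary kinesin of the Hedgehog pathway, read -2.24, -1.59, 0.68, -0.97 and -1.34 (mean -1.09 ± 1.10, n = 5; limma adjusted p = 0.435). Array 3 alone was positive.

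Kif3a and Kif3b are the motor subunits of heterotrimeric kinesin-2, which drives transport into cilia, including the photoreceptor's. Kif3a read 0.46, -0.18, -0.80, 0.24 and -0.38 on arrays 1 to 5, on both sides of 0, with a mean of -0.13 ± 0.50 (SD, n = 5). The sign of this mean turned when arrays were centred on single-symbol probes, to 0.01. Kif3b spot 14678 read -1.22, 0.47, -0.44, 0.25 and -0.25, and spot 10974 read 1.01, 1.31, 6.67, 0.32 and -2.37. The 6.67 of the latter on array 3 was the highest ratio among the tested motor and track probes. Kif21a, a kinesin that restrains microtubule growth, ranged from -1.31 to 0.90 at spot 8717, and its spot 15991 had values on 3 arrays. Kif4, a chromosome-associated mitotic kinesin, had values on arrays 1 and 5 alone, -0.30 and 1.32.

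Kinesin light chains link conventional kinesin to its cargo, and the means of the Klc1 probes lay further apart than those of any other gene here except Myo5a. Klc3 had centred log2 ratios of -2.25, -0.33, -1.94, -0.53 and -0.46 on arrays 1 to 5, with a mean of -1.10 ± 0.92 (SD, n = 5; limma adjusted p = 0.432). All 5 were negative, and arrays 1 and 3 were lowest. Klc1 had 4 tested probes whose means ran from -0.83 to 1.67. Spot 11970 read 2.57, 1.18, 0.13, 1.81 and 2.68 (mean 1.67 ± 1.06, n = 5; limma adjusted p = 0.409), and was the 1 motor or track probe of 50 that was positive on all 5 arrays. Spot 4009 read -1.47, 0.18, -1.54, -0.13 and -0.12, and spot 8062 read -1.92, -2.11, 0.43, -1.10 and 0.55. Spot 5834 read 4.11, -0.71, -0.09 and -0.26 on arrays 1, 2, 3 and 5. The probes of Klc1 therefore gave no single direction for the gene. Klc4 had values on 3 arrays, -4.83, 0.61 and -2.24.

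Cytoplasmic dynein 1 is the main minus-end motor and is built on the heavy chain Dync1h1. Spot 8176 of Dync1h1 read -2.41, 0.13, -2.78, -3.23 and -1.38 on arrays 1 to 5, and its mean was -1.93 ± 1.34 (SD, n = 5; limma adjusted p = 0.409). This was the most negative mean of the probes tested, and array 2 stood alone above 0. Spot 1843 of the same gene read -1.75, 0.29, -1.14, -0.14 and 0.08, so both probes were under -1 on arrays 1 and 3 but parted on arrays 4 and 5. Dync1i1, the intermediate chain enriched in neurons that joins the motor to dynactin, read 2.83, 2.12, 2.38 and 4.91 on arrays 1, 2, 3 and 5 and had no value on array 4. Its mean of 3.06 ± 1.27 (SD, n = 4) was the largest among the tested motor and track probes and had the smallest limma adjusted p, 0.284. All 4 values lay well above 0, and the gene had 1 spot here.

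The second intermediate chain, Dync1i2, which is present in most cells, read -0.08, 0.51, -0.52, 0.93 and 0.39 at spot 430. Its spot 555 read 0.90, 0.85, 0.48 and 0.44 on arrays 2 to 5 and -7.56 on array 1, so that its mean, -0.98 ± 3.68 (SD, n = 5), rests on array 1 and was 0.67 without it. Dynein 2 carries cargo back from the ciliary tip. Its heavy chain Dync2h1 read -4.42, 0.52, 0.02, 0.10 and -1.10, again with array 1 far below the rest. Its light intermediate chain Dync2li1 read -1.52, -0.10, -0.11, -0.28 and -0.71, all negative. The median of the 7 heavy, intermediate and light intermediate chain probes minus the single-symbol median had a mean of -0.09 over arrays and 0.24 without array 1.

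Dynein light chains, small subunits shared with other complexes, had mostly small ratios. Dynll1 read 0.16, -0.02, -0.86, 0.21 and -0.25 on arrays 1 to 5, and Dynll2 read -0.27, -0.06, 0.55, 0.24 and 0.84. Neither kept 1 sign. Dynlrb1 read -0.63, -0.35, -1.05, 0.26 and -0.65. For Dynlt1b, a Tctex-type light chain, spot 12719 read -2.63, -2.24, -0.87 and -0.16 on arrays 1, 3, 4 and 5 (mean -1.48 ± 1.16, n = 4; limma adjusted p = 0.432). Its spot 10175 read 0.25, -0.05, 0.05, 0.95 and -0.50, so the probes of this gene differed. The Dynlt1 genes are near-identical copies, and a probe may bind more than one of them.

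Dynactin activates dynein and tethers it to microtubules and cargo. Its largest subunit, Dctn1 or p150Glued, read -2.24, -0.10, -1.99, -0.69 and -0.03 on arrays 1 to 5, with a mean of -1.01 ± 1.04 (SD, n = 5; limma adjusted p = 0.436). All 5 values were negative, but those of arrays 2 and 5 were close to 0. The means of the other subunits were smaller in size. Dctn2 read -0.60, -0.21, -0.63, 0.23 and -0.08, Dctn3 read -0.75, -0.28, -1.18, 0.41 and -0.36, and Dctn6 read -0.85, -0.18, -1.10, 0.04 and -0.83. In these 3 subunits arrays 1 and 3 were lowest and array 4 was positive. Dctn4 differed, with 2.49, -0.69, 0.48, 0.01 and 0.49 at spot 15745 and -0.38, 0.39, -0.23 and 0.76 on arrays 2 to 5 at spot 8454. Of the 6 dynactin probes none reached an unadjusted limma p under 0.05 (0 negative and 0 positive), against 6.18% and 3.35% of single-symbol probes.

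Structural microtubule-associated proteins were the role group with the most probes of 1 sign. Of 11 probes tested, for 4 genes, 3 reached an unadjusted limma p under 0.05 with negative means and 0 with positive, and 4 of the 8 on all 5 arrays were negative throughout. Among single-symbol probes, 6.18% were negative at that p, 3.35% positive at it, and 12.8% negative on all 5. Several of these probes share a gene. The group's median minus the single-symbol median was -0.59, -0.26, -0.43, -0.32 and 0.07 on arrays 1 to 5. Mapt, which encodes tau of the axon, read -1.90, -0.59, -1.91, -0.91 and -0.34 at spot 9834, a mean of -1.13 ± 0.74 (SD, n = 5; limma adjusted p = 0.426). All 5 were negative. Spot 1276 of Mapt read -0.41, -0.20, -0.78, 0.38 and 0.80, and spot 15406 read -1.37, -2.98 and 1.53 on arrays 1 to 3. Map2, the marker protein of dendrites, read -0.96, -0.02, -0.77, -0.47 and -0.08 at spot 12833, all negative, and -3.42, 1.08, -0.84, -0.25 and -0.23 at spot 4077. Map4, the form found outside neurons as well, read 0.17, -0.26, 2.15 and 0.25 on arrays 1 to 4 at spot 12157. Its spot 13600 read 0.40, -1.0, -0.52 and 0.06 there.

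Map1b, which is made early in neurite growth, had 5 tested probes with means from -1.19 to 0.65. Spot 10857 read -2.08, -0.28, -1.90, -0.77 and -0.93 on arrays 1 to 5, and its mean was -1.19 ± 0.77 (SD, n = 5; limma adjusted p = 0.411). Spot 12713 read -1.32, -0.76, -1.26, -0.47 and -0.22, a mean of -0.81 ± 0.48 (limma adjusted p = 0.432). These probes were negative on all 5 arrays and lowest on arrays 1 and 3. Spot 13930 read -1.36, 0.24, -2.14 and 1.38 on arrays 1 to 4, and spot 17017 read -0.79, 0.50, -0.55, -0.45 and 0.25. Spot 8076 ran the other way, at 2.02, 2.0, 1.21 and 0.79 on arrays 1, 3, 4 and 5 and -2.76 on array 2. Map1lc3b, the LC3 protein that marks autophagosomes and also binds microtubules, read -1.26, -0.04, -2.10, -0.14 and -0.71, with a mean of -0.85 ± 0.85 (limma adjusted p = 0.438).

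Map1b, Mapt, Map1lc3b, Klc3, Dctn1 and Kif1a were the 6 genes with a probe that was negative on all 5 arrays and under -1 on arrays 1 and 3. The 250 bases before the start site are shown for 3 of them that hold a GC box there. A GC box is the letters GGGCGG on either strand, which Sp1-family factors bind. The counts below also cover the 50 bases after the start, which are not shown. In Map1b those bases hold another GC box and the letters TAATCC. Sequences are from RefSeq on GRCm38.p6, 5′ to 3′ on the gene's strand, with the GC box in capitals. They lie at chr13:99516603-99516852 on the minus strand (Map1b), chr7:19404105-19404354 on the minus strand (Klc3) and chr8:121590188-121590437 on the plus strand (Map1lc3b).
Map1b: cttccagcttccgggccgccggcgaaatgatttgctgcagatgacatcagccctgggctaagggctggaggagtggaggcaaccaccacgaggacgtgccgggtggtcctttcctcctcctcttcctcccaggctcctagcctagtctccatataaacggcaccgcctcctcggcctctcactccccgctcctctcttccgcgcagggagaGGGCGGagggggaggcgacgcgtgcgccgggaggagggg
Klc3: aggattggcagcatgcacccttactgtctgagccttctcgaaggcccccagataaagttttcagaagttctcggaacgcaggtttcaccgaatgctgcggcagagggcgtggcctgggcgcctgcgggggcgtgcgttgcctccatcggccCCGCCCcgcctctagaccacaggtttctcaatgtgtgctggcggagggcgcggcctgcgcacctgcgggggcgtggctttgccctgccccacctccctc
Map1lc3b: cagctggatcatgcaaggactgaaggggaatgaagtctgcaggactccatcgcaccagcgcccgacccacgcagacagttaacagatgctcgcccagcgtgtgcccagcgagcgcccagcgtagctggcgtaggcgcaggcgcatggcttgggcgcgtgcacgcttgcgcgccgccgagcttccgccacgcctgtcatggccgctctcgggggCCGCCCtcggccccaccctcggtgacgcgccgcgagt
The GC box shown begins 39 bases before the start in Map1b, 99 in Klc3 and 37 in Map1lc3b. G and C make up 66.4%, 65.6% and 69.6% of the letters shown. The windows of Dctn1 and Kif1a, also in the table, hold no GC box, and Mapt had no entry.

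RefSeq promoter windows, 250 bases before to 50 after a start site, were found for 41 of the 52 genes, 52 windows in all. A GC box was in 34 of the 52 windows (65.4%), against 35.7% of all 32851 windows and 46.2% of the 21262 windows of protein-coding genes. TAATCC, the letters of the photoreceptor factor CRX, was in 5.77%, against 7.06% of all windows and 6.42% of protein-coding ones. The E2F letters TTTCCCGC, TTTGGCGC, TTTCGCGC or TTTGCCGC were in 1.92%, against 2.26% and 2.85%. E2F factors are the partners that Rb binds. CCAAT was in 36.5%, against 37.4% and 38.2%, and TATAAA in 5.77%, against 13.6% and 12.6%. Both strands were searched, and some genes gave more than 1 window. A match describes letters and is no binding site, and windows differ in base composition.

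Stathmins bind free tubulin and destabilise microtubules, and Stmn2, Stmn3 and Stmn4 are the neuronal forms. Stmn4 read -1.25, -0.27, -1.64, 0.08 and -0.20 on arrays 1 to 5, with arrays 1 and 3 lowest. Stmn2 read -0.28, -0.07, -1.17, 0.18 and -3.07, with array 5 lowest. Stmn3 read -0.96, 0.30, -0.50, 1.14 and 0.13, on both sides of 0. None of the 3 reached an unadjusted limma p under 0.05 (0 negative and 0 positive), against 6.18% and 3.35% of single-symbol probes. The smallest limma adjusted p was 0.456.

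Tubulins form the track itself. Tubb4b, a beta tubulin of ciliated and many other cells, was among the steadiest probes, at -0.23, -0.18, -0.13, -0.18 and -0.62 on arrays 1 to 5 (mean -0.27 ± 0.20, SD, n = 5; limma adjusted p = 0.606). All 5 values were negative and small, but on arrays 1 and 3 they lay above the single-symbol medians of -0.36 and -0.34. Tubb6 read 2.05, -0.08, 0.67, 1.97 and 0.19 (mean 0.96 ± 0.99, n = 5; limma adjusted p = 0.436), with arrays 1 and 4 highest. Gamma tubulin nucleates microtubules in a ring complex. Its gene Tubg1 read -0.73, -0.01, 0.08, -0.23 and -0.89, and the ring subunit Tubgcp5 read -0.64, 0.14, -0.55, 0.06 and -0.58. Tubgcp4 read 0.82, -5.30, 0.24 and -0.56 on arrays 1 to 4, so array 2 alone set its mean of -1.20 ± 2.79, which was 0.17 without it. Tubgcp6 had values on arrays 3 and 4 alone, 1.12 and 2.23. Mapre3, an EB protein that tracks growing plus ends, had 1.86, 0.61 and -2.15 on 3 arrays. Alpha tubulins, Tubb3, Kif5a, Map1a, Mapre1 and Myh9 were not analysed here.

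Myosins, the actin motors, included the most divergent pair of probes. Myo5a, the melanosome and vesicle carrier, read 0.95, 2.04, 3.5 and 1.23 on arrays 1, 2, 4 and 5 at spot 9561 (mean 1.93 ± 1.14, n = 4; limma adjusted p = 0.409) and -0.31, -2.06, -0.38 and -0.67 on arrays 1 to 4 at spot 5234 (mean -0.85 ± 0.82). Each probe kept 1 sign, and the signs were opposite. Myo7a, the motor lost in Usher syndrome and active in photoreceptors and pigment epithelium, read 0.48, 0.30, -0.73, 0.12 and -0.56. Myo9b lay closest to 0 of the probes tested, at 0.05, -0.01, -0.26, 0.24 and 0.04 (mean 0.01 ± 0.18, n = 5). Myo18a, a Golgi-associated myosin, ranged from -0.42 to 0.99 on 4 arrays. Myo6, a motor toward the minus end of actin, and Myo9a had values on 3 arrays and both signs.

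Class II myosins form contractile filaments. Myh10, the non-muscle heavy chain IIB, read -0.17, 0.03, -0.59, -0.02 and -0.60 on arrays 1 to 5 (mean -0.27 ± 0.31, SD, n = 5; limma adjusted p = 0.622). Arrays 3 and 5 were lowest. Of the light chains, Myl12a read -1.30, -2.20, 0.07 and -0.57 on arrays 2 to 5, and Myl6 read -0.05, -0.03, -0.55, 0.41 and -0.35. Myh7, the slow muscle and cardiac heavy chain, had 0.46 and 0.85 on arrays 1 and 3, its only values. No skeletal muscle marker of the list used had a single-symbol spot here (0 probes).

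Across the group, probes that kept 1 sign on all arrays were mostly negative, as they were among single-symbol probes. Of the 50 probes on all 5 arrays, 10 were negative throughout and 1 was positive throughout, against 12.8% and 3.39% of single-symbol probes. The negative ones were Map1lc3b, Tubb4b, Dync2li1, Dctn1, Klc3, Map1b spots 10857 and 12713, Map2 spot 12833, Mapt spot 9834 and Kif1a spot 3788. Their count, 10 of 50, changed to 6 when arrays were centred on single-symbol probes and to 5 genes when a gene's probes were averaged. Relative to the single-symbol medians, Tubb4b lay above on arrays 1 and 3, Dync2li1 on array 3, and Dctn1 and Map2 spot 12833 on array 5.

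Low ratios were often shared by arrays 1 and 3. Of the 60 probes measured on both, 15, for 12 genes, were under -1 on both, against 10.1% of single-symbol probes. They were Map1lc3b, Dctn1, Klc3, Stmn4, both Dync1h1 probes, Map1b spots 10857, 12713 and 13930, Mapt spot 9834, Klc1 spot 4009, Kif1a spot 3788, Kif1b spot 7463, Kif5c spot 7399 and Dynlt1b spot 12719. On the arrays that did not choose them, these 15 had medians of -0.06, -0.37 and -0.34 on arrays 2, 4 and 5, with 8 of 14, 13 of 15 and 13 of 14 values negative. The 534 single-symbol probes under -1 on arrays 1 and 3 had medians of 0.04, -0.18 and -0.44 there, with 236 of 518, 351 of 522 and 411 of 518 values negative, and all single-symbol probes had medians of 0.01, 0.07 and -0.22. The probes over 1 on both arrays were 3 of 60, Dync1i1, Map1b spot 8076 and Kif3b spot 10974, against 4.37% of single-symbol probes. Nearest inside the limit lay Kif1a spot 3788, at -1.13 and -1.90, and Dync1h1 spot 1843, at -1.75 and -1.14. Nearest outside it on arrays 1 and 3 lay Dctn6 (-0.85 and -1.10), Map2 spot 4077 (-3.42 and -0.84), Map2 spot 12833 (-0.96 and -0.77), Dctn3 (-0.75 and -1.18) and Kif13a spot 13261 (-1.10 and -0.73).

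**Figure D2:**
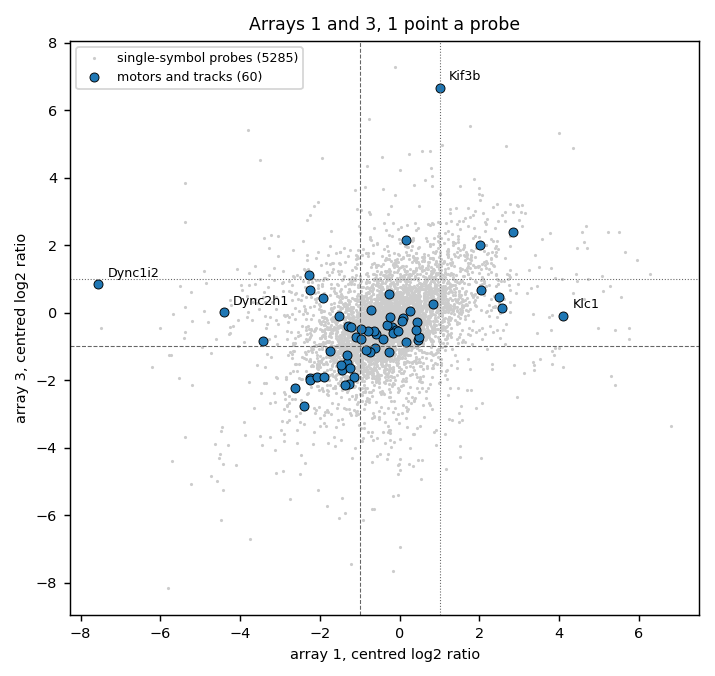
Centred log2 ratio on array 1 (horizontal) against array 3 (vertical), 1 point a probe, for the 60 motor and track probes (blue) and 5285 single-symbol probes (grey) measured on both; dashed lines stand at -1 and dotted lines at 1. Of the blue points 15 lie in the lower left corner and 3 in the upper right, where Kif3b spot 10974 reaches 6.67 on array 3, and Dync1i2 spot 555 (-7.56 on array 1) lies far from both corners.

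Markers of rods and of proliferating cells lay further from the single-symbol median than the motors and tracks on arrays 1, 3 and 4. The marker lists were chosen with earlier results of these data known, so their ratios are a description and no independent check. The 34 rod photoreceptor probes tested, for 20 genes, had a median minus the single-symbol median of -3.04, 0.07, -2.01, -0.43 and 0.24 on arrays 1 to 5. Of the 27 measured on both arrays 1 and 3, 15 were under -1 on both, against 10.1% of single-symbol probes. The 21 DNA replication probes had 1.96, -0.03, 2.09, 0.70 and -0.04, and the 26 probes of G2 and mitosis 1.98, 0.11, 1.56, 0.54 and 0.05. The 8 cone probes had -0.95, 0.34, -0.99, 0.34 and -0.28. Ganglion and amacrine cells are neurons rich in tau and MAP1B. Their 21 probes, with Stmn2 left out as a gene of the motor and track set, had -0.47, -0.05, -0.94, -0.39 and 0.17. Under -1 on both arrays 1 and 3 were 6 of 19, against the same 10.1% of single-symbol probes. The 12 Muller glia probes had -0.38, 0.05, 0.29, 0.08 and 0.22, and the 3 bipolar cell probes -0.23, -0.21, -0.49, 0.27 and -0.08. Pigment epithelium, vessels, blood and microglia had 3 probes or fewer each, with 0 calls. The part of any of these cell types in the motor and track ratios was not tested. The genes that the rule left out had a median difference of 0.11, 0.03, -0.40, 0.90 and -0.11 over 5 probes.

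**Figure D3:**
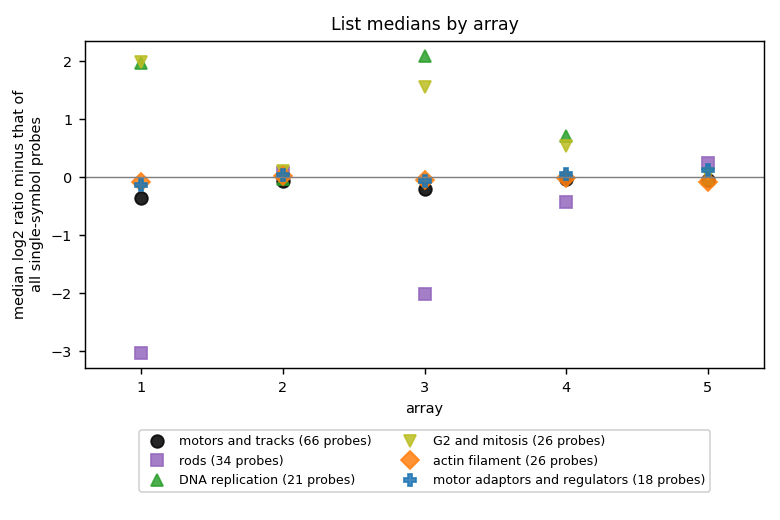
Median centred log2 ratio of each list minus that of all single-symbol probes (vertical) on arrays 1 to 5 (horizontal), 1 symbol a list. Rods (squares) reach -3.04 and -2.01 and DNA replication (triangles) 1.96 and 2.09 on arrays 1 and 3, while motors and tracks (circles) stay between -0.37 and -0.03.

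Lists of genes that work with the motors lay on both sides of the single-symbol median. Beside each count below, 6.18% of all single-symbol probes were negative and 3.35% positive at an unadjusted limma p under 0.05. Motor adaptors and regulators, 18 probes, had medians minus the single-symbol median of -0.14, 0.04, -0.07, 0.05 and 0.12 on arrays 1 to 5, with 2 negative and 0 positive probes at an unadjusted limma p under 0.05. These were Trak2 spot 12545, a mitochondrial adaptor of kinesin, and Ppp1r12a spot 8356, the targeting subunit of myosin phosphatase, with means of -0.80 ± 0.63 and -0.85 ± 0.59 (SD, n = 5). Tubulin folding, severing and modification, 16 probes, had 0.10, 0.07, 0.28, 0.15 and 0.14, above 0 on each array, with 0 negative and 1 positive, the prefoldin subunit Pfdn5 (mean 2.93 ± 1.68, n = 4). Plus-end and other microtubule binders, 19 probes, had -0.51, 0.20, 0.24, -0.24 and -0.13. Here 2 were negative, Tacc2 (-2.0 ± 1.82) and Camsap1 spot 6544 (-0.78 ± 0.59), and 1 positive, the minus-end binder Camsap2 (0.65 ± 0.37). Actin filament genes, 26 probes, had -0.08, 0.02, -0.04, -0.01 and -0.08, with 2 negative, Capzb (-0.62 ± 0.21) and Pfn2 spot 13623 (-0.82 ± 0.47), and 1 positive, Msn (0.79 ± 0.44). Other spots of these genes had means of -0.19 in Trak2, -0.18 in Camsap1 and -0.48 in Pfn2. Those of Ppp1r12a had -0.50 at spot 10913 and 0.33 at spot 15209, on 3 arrays. No probe of these lists passed limma's adjusted threshold (0 calls).

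The list of ciliary transport genes, intraflagellar transport and Bardet-Biedl (BBS) genes that work with kinesin-2 and dynein 2, was below the single-symbol median on 4 of the 5 arrays. With Dync2h1 and Dync2li1 left out as motor genes, its 13 probes had medians minus the single-symbol median of -0.18, 0.06, -0.85, -0.30 and -0.08 on arrays 1 to 5. Of the 11 measured on both, 4 were under -1 on arrays 1 and 3, against 10.1% of single-symbol probes, and 3 of the 11 on all 5 arrays were negative throughout, against 12.8%. Ift122, a subunit of the complex that returns cargo, read -1.19, -0.19, -1.51, -0.51 and -0.42 (mean -0.76 ± 0.56, n = 5; limma adjusted p = 0.432). It was the 1 probe of the list at an unadjusted limma p under 0.05, against 6.18% of single-symbol probes negative and 3.35% positive.

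Probes of 1 gene often disagreed. Of the 14 motor and track genes with at least 2 tested probes, 8 had probe means of opposite sign, against 45.5% of the 989 such single-symbol genes. These were Dync1i2, Dynlt1b, Kif1b, Kif3b, Klc1, Map1b, Map4 and Myo5a. The means of Dctn4, Dync1h1, Kif1a, Kif5c, Map2 and Mapt shared a sign. That of Mapt spot 1276 was only -0.04 and turned positive when arrays were centred on single-symbol probes. Without arrays 1 and 3 it turned as well, as did those of Dctn4 spot 15745, Dync1h1 spot 1843 and Map2 spot 4077. The widest gaps between probe means were 2.78 in Myo5a, 2.51 in Klc1 and 1.85 in Map1b, and the narrowest were 0.05 in Kif1a and 0.11 in Kif5c. Close means did not mean close values, since the probes of Kif1a and of Kif5c had opposite signs on arrays 3 and 5.

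**Figure D4:**
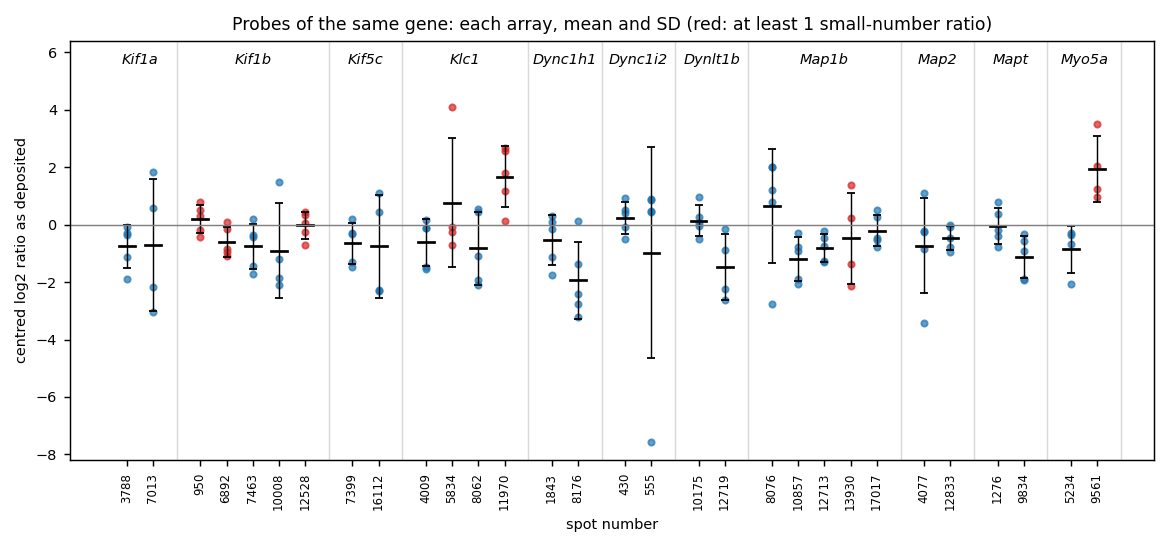
Centred log2 ratio (vertical) on each array (dots) for every tested probe of 11 motor and track genes with several probes, by spot number, with the mean (thick bar) and SD (whiskers); red marks probes with at least 1 deposited ratio of small whole numbers. Myo5a and Klc1 have probes well apart on either side of 0, with means of -0.85 and 1.93 in Myo5a, while the Kif5c means lie together.

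Some of the deposited ratios were ratios of small whole numbers. A share of 8.87% of all deposited values equalled, to the decimals given, the log2 of a ratio of whole numbers up to 8, against 0.522% of the same values moved by a small offset. At least 1 such value was in 16 of the 66 motor and track probes, against 17.3% of single-symbol probes. Klc1 spots 5834 and 11970, Klc3, Kif7, Kif13a spot 13261, Kif3b spot 10974, Myo5a spot 9561 and both Map4 probes were among them, while Dync1i1, Dync1h1, Dctn1, Mapt spot 9834 and Map1b spots 10857 and 12713 had none. Of the partner probes named above, Pfdn5, Camsap2 and Ppp1r12a spot 8356 held such a value as well. The median SD over arrays was 0.947 in the 16 and 0.751 in the other 50 motor and track probes, and 1.12 and 0.660 over single-symbol probes. With such probes left out, 3 of 10 genes had probe means of opposite sign, against 41.0% of 697 genes, and 1 positive motor or track probe, Dync1i1, had an unadjusted limma p under 0.05 in place of 3. The part of dim signal in these ratios was not tested, since no intensity was used.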

How the data were processed

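Retinal RNA was compared on 5 dual-colour spotted arrays. The values are log2 ratios deposited by the authors; GenePix Pro 4.1.1.29 read the spots, per the labels, with local background subtraction and no normalization. That the scale is log2 was read from the values. None of the sources used here states the filter behind empty cells or a dye swap. Cells at 16.61 (log2 of 100000), 1 of them in the motor and track spots, were set to missing, and each array was centred on its median. The medians removed were -0.755, -0.025, -0.715, -0.0575 and -0.742 on arrays 1 to 5. Centring left the single-symbol median at -0.36, 0.01, -0.34, 0.07 and -0.22 on arrays 1 to 5, so lists are given relative to it. The number of arrays limits the precision.

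Probes on at least 4 arrays, without 192 ACTB control spots, were tested against 0 with limma 3.58.1 (R 4.3.3; lmFit, eBayes, tested on simulated data), with Benjamini-Hochberg adjustment over all 10036 and a threshold of 0.05. Symbols came from the platform annotation; all 78 matched RefSeq, and 11 spots with several symbols were left out. Probes are told apart by spot number.

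Members, role groups and lists were chosen with earlier results of these data known. Within each role group the rule named up to 3 probes with the smallest limma p, those with the largest means of either sign on all 5 arrays, their genes' other probes and a list of well-known members. The remaining members are given so that each is accounted for, and partner genes are those at an unadjusted p under 0.05. Alternatives covered centring, scaling, weights, scanner focus position, filters, the filler, averaging of probes, an unmoderated test and left-out arrays. The exclusion of ratios of small whole numbers was added after seeing the data.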

Additional observations from a re-analysis of the deposited data

Results flagged for a closer look

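Of 68 results checked for an array far from the others, 4 stood out. About 1 in 20, or 3.4, would do so if all arrays had the same normal spread. Arrays 1 and 3 were spread more widely, and several of the probes share a gene, so 3.4 is only a rough guide. The 68 were the 58 named probes and the medians of the whole set and its larger role groups. All 4 that stood out were probes. Tubb4b spot 6898 read -0.62 on array 5 and -0.23 to -0.13 on the rest. Dync1i2 spot 555 read -7.56 on array 1 and 0.44 to 0.90 elsewhere. Klc1 spot 5834 read 4.11 on array 1 and -0.71 to -0.09 on the other arrays that measured it. Map1b spot 8076 read -2.76 on array 2 and 0.79 to 2.02 on the others.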

How the results depend on the processing

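The count of 0 adjusted calls held under the 20 alternatives with a test, and the lowest adjusted limma p of any of the 58 named probes in any alternative was 0.214. The median of the probes relative to single-symbol probes stayed negative, between -0.21 and -0.04. The negative count at an unadjusted p under 0.05, 8, was 21 without centring, 2 without arrays 1 and 3 and 4 to 10 with 1 array left out. The positive count, 3, was 1 on focus position 10 alone, 1 without small-number ratios and 3 to 5 with 1 array left out. The 10 probes negative on all 5 arrays became 6 with single-symbol centring and 5 with a gene's probes averaged. The 1 positive probe became 2 with centring on probes of all 5 arrays, and 0 with averaged probes, without centring and without small-number ratios.

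Of the 58 named probes, 32 kept the sign of their mean throughout. In the other 26 it turned under at least 1 alternative. Beyond the downward shift without centring, the cause was not tested. Given by gene and spot number, the mean turned as follows. With array weights, it was turned in Mapt 1276 (0.12). With arrays scaled to equal deviation, it was turned in Mapt 1276 (0.025). With quantile normalization, it was turned in Mapt 1276 (0.0097). With the filler kept, it was turned in Myo9b 10307 (-0.0020). With focus position as a block, it was turned in Map1b 13930 (0.14) and Mapt 1276 (0.064). Centred on probes on all 5 arrays, it was turned in Dynll1 17049 (0.0048), Kif3a 11428 (0.023), Mapt 1276 (0.11), Myl6 11579 (0.041) and Myo7a 4816 (0.079). Centred on single-symbol probes, it was turned in Kif3a 11428 (0.0064), Mapt 1276 (0.10), Myl6 11579 (0.025) and Myo7a 4816 (0.062). Without centring, which keeps each array's negative deposited median and so lowers every mean, it was turned in Dctn4 8454 (-0.25), Dync1i2 430 (-0.21), Dynll2 16018 (-0.20), Dynlt1b 10175 (-0.32), Myo18a 3479 (-0.036), Myo9b 10307 (-0.45) and Stmn3 115 (-0.44). On focus position 10 alone, it was turned in Dync1i2 430 (-0.029), Myo18a 3479 (-0.19), Myo7a 4816 (0.018), Myo9b 10307 (-0.074) and Stmn3 115 (-0.39). On focus position 0 alone (2 arrays, no test), it was turned in Dctn3 4033 (0.025), Dync1i2 555 (0.46), Kif3b 10974 (-1.03), Mapt 1276 (0.59) and Myl6 11579 (0.032). Without arrays 1 and 3, it was turned in Dctn4 15745 (-0.066), Dync1h1 1843 (0.079), Dync1i2 555 (0.61), Kif3b 10974 (-0.25), Kif3b 14678 (0.15), Klc1 5834 (-0.48), Map1b 13930 (0.81), Map1b 17017 (0.10), Map1b 8076 (-0.26), Map2 4077 (0.20), Map4 12157 (-0.0022), Mapt 1276 (0.33) and Myl6 11579 (0.011). With 1 array left out, means ran from -0.074 to 0.31 in Dctn4 8454, from -1.45 to 0.67 in Dync1i2 555, from -0.24 to 0.028 in Dynll1 17049, from -0.062 to 0.30 in Dynlt1b 10175, from -1.56 to 0.070 in Kif1a 7013, from -0.28 to 0.035 in Kif3a 11428, from -0.42 to 0.0054 in Kif3b 14678, from -0.35 to 1.25 in Klc1 5834, from -1.09 to 0.085 in Map1b 13930, from -0.25 to 0.14 in Mapt 1276, from -0.21 to 0.086 in Myo7a 4816, from -0.046 to 0.079 in Myo9b 10307, from -0.26 to 0.27 in Stmn3 115 and from -1.87 to 0.17 in Tubgcp4 16749.

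No paired analysis was possible because there is 1 group, whose replicate numbers match no other samples; each ratio already sets both RNAs of an array against each other. The count of probes with 1 sign on all 5 arrays has no value where arrays are left out, and single probes have none where a gene's probes are averaged. No signal over background was used to separate dim spots.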
